A study of Mus musculus with 36 samples.

Results

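The fibrillar collagen genes were followed through 2 intraductal mouse models of triple-negative breast cancer. Their 9 genes (Col1a1, Col1a2, Col3a1, Col5a1, Col5a2, Col5a3, Col11a1, Col11a2 and Col24a1) were chosen by name, and all 9 were found among the 21650 genes of the deposited expression table. Col11a1 was set against the abundant collagens I and III. RNA-seq libraries came from 12 groups of 3 libraries, 36 in all. Lactating dams were inoculated after weaning of their pups, through the teat canal of the third mammary gland. BALB/c females received 4T1 cells, a metastatic BALB/c mammary tumor line that expresses firefly luciferase. C57BL/6 females received Py230 cells, a line derived from a tumor of an MMTV-PyMT mouse (a strain in which a mammary tumor virus promoter drives an oncogene), and more Py230 than 4T1 cells were given. Both cell lines were injected in diluted Matrigel, a basement membrane extract, and glands of each strain that received Matrigel served as controls. Tumors and control glands were taken 1, 3 and 6 weeks (w) post-inoculation (p.i.). Each model is 1 cell line in 1 mouse strain, so that cell line and strain cannot be told apart in a comparison of the tumors, and whole tumors held tumor cells, stroma and remaining gland together. The labels number the libraries of a group without saying that each came from another animal, and p-values measure the spread between these libraries.

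Fibrillar collagens are triple helices that assemble end to end and side by side into the banded fibrils of connective tissue. Collagen I, made of the chains of Col1a1 and Col1a2, and collagen III, made of the chain of Col3a1, form the bulk of these fibrils in skin, vessel wall and mammary stroma, where fibroblasts secrete them. Collagens V and XI are minor chains that start fibrils and limit their width. Collagen V (Col5a1, Col5a2, Col5a3) does so beside collagen I, and collagen XI (Col11a1, Col11a2) beside collagen II in cartilage. Col24a1 encodes a further minor fibrillar chain known from developing bone and eye. Procollagen chains are hydroxylated and folded in the endoplasmic reticulum, trimmed by proteases outside the cell and crosslinked by lysyl oxidases. Matrigel itself consists mainly of laminin and collagen IV protein, neither of which is a fibrillar collagen.

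The values are scores, which were standardized per library so that the genes of each average 0 with an SD of 1. A score of 0 is thus the level of the mean gene of that library. By comparison with the mean normalized counts that the authors deposited, 1 score unit corresponded to 2.99 log2 units over 13567 genes, with a residual SD of 0.0845 log2 units. The log2 values given below use this factor and are a guide only. For Col11a1 the log2 of the mean count lay 0.38 units above this relation. The 347 genes of the fit whose score had an SD over 0.6 lay above it by a median of 0.37 units. For strongly varying genes the factor thus fits less closely than the residual SD over all genes implies. Sequencing depth per library is unknown from these scores, and no counting interval was set.

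Chromosomal positions are those of the mm10 build. Col11a1 lies at chr3:114030540-114220718 on the plus strand. Col1a1 lies at chr11:94936224-94953042, Col1a2 at chr6:4504814-4541544 and Col3a1 at chr1:45311538-45349706, all on the plus strand. Col5a2, at chr1:45374321-45503282 on the minus strand, is the convergent neighbor of Col3a1. Over the 12 group means Col3a1 and Col5a1 correlated at r = 0.64, and Col11a1 with these genes at -0.50 and -0.68. The 250 bases upstream of the start are shown for Col11a1, for Col3a1 as an abundant chain and for Col5a1 as the main chain of collagen V. They are RefSeq promoter sequences on mm10, plus strand, 5′ to 3′, at chr3:114030290-114030539, chr1:45311288-45311537 and chr2:27886175-27886424. Capitals mark 3 motifs read on either strand, namely the CCAAT box (CCAAT or its reverse ATTGG), the TATA box (TATAAA or its reverse TTTATA) and the GC box (GGGCGG or its reverse CCGCCC). None of these matches overlap.
Col11a1: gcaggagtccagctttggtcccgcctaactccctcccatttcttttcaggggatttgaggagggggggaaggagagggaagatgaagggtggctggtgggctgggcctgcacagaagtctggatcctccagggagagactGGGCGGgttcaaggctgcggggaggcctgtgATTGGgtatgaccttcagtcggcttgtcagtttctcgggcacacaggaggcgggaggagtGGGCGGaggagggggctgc
Col3a1: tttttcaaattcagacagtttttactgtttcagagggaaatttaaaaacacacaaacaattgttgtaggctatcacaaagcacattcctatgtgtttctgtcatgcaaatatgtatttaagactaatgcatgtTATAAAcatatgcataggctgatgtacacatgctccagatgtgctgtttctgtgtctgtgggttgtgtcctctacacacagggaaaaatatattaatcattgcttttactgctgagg
Col5a1: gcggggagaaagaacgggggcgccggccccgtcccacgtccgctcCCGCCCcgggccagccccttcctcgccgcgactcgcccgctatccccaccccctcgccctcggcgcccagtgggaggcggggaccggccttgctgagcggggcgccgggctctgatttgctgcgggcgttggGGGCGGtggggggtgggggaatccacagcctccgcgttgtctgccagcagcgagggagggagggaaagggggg
The Col11a1 window held ATTGG at position -79 and GGGCGG at -110 and -19, counted from the start with -1 as the last base shown. The Col3a1 window held TATAAA at -117 and neither of the other motifs. The Col5a1 window held CCGCCC at -205 and GGGCGG at -73. Of 32851 mouse promoter windows of this length, 33.8% held CCAAT, 12.4% held TATAAA and 32.7% held GGGCGG in either direction. GC content was 62.4% for Col11a1, 35.2% for Col3a1 and 76.4% for Col5a1, above 77.5% of all windows for Col11a1 and 97.0% for Col5a1. A match of letters is a description and not a site of binding. Sequences were matched for 7 of the 9 genes, not for Col1a1 and Col5a2.

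To compare levels between genes, the authors' mean normalized count over all libraries was divided by the length of the merged exons. On this scale of counts per kb, Col3a1 stood at 5760, Col1a1 at 4728 and Col1a2 at 2565. The collagen V chains followed at 611 for Col5a2, 505 for Col5a1 and 480 for Col5a3. Col11a1 stood at 103, Col11a2 at 6.86 and Col24a1 at 2.31. Collagens III and I were thus the main fibrillar transcripts, collagen V formed a middle tier, and Col11a1 lay below all of these when averaged over the series. Of the fibrillar collagen genes outside the 9, Col27a1 stood at 27.8 and Col2a1, the chain of cartilage collagen II, at 1.03.

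**Figure D1:**
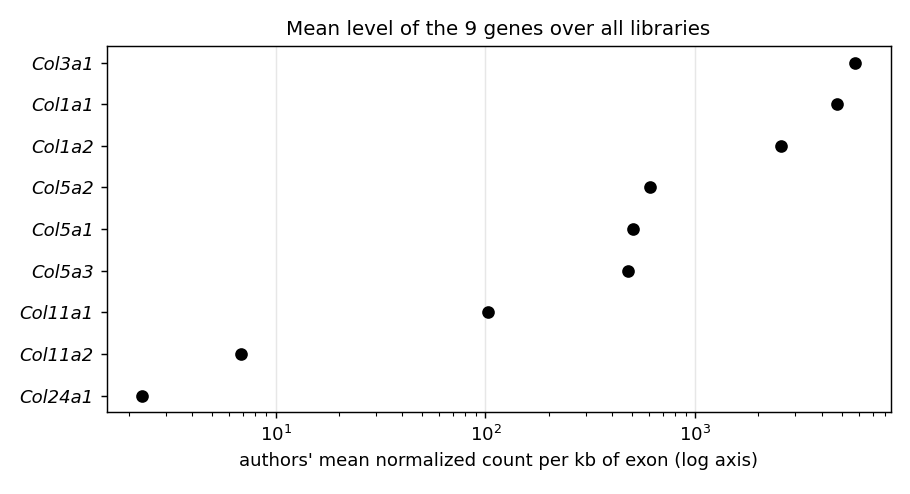
Mean level of each of the 9 genes over all 36 libraries, as the authors' mean normalized count per kb of merged exon (log axis, 1 point per gene, no error available). Col3a1 and Col1a1 lie at the top and Col24a1 at 2.31 at the bottom.

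Col11a1 had the widest range of the 9 genes over the 12 groups, and its highest and lowest groups were tumors of the 2 models. Its group means spanned 2.23 score units (6.65 log2), whereas those of collagens I, III and V spanned from 0.37 for Col5a2 to 0.78 for Col5a3. The median SD within groups was 0.16 for Col11a1 and 0.12 for Col1a1. In Py230 tumors Col11a1 scored 0.24, 0.23 and 0.23 at 1 w p.i., 1.84, 1.63 and 1.06 at 3 w p.i., and 1.87, 1.82 and 1.77 at 6 w p.i. In 4T1 tumors it scored -0.13, 0.14 and -0.04 at 1 w p.i., -0.25, -0.30 and -0.15 at 3 w p.i., and -0.44, -0.62 and -0.15 at 6 w p.i. The 6 Py230 tumor libraries of 3 and 6 w p.i. were all above every other library, and the 4T1 libraries of the same weeks were all below every gland library.
BALB/c Matrigel glands scored 0.13, -0.09 and 0.20 at 1 w p.i., 0.22, 0.09 and 0.44 at 3 w p.i., and 0.23, 0.25 and 0.37 at 6 w p.i. C57BL/6 Matrigel glands scored 0.19, -0.04 and 0.32, then 0.16, 0.59 and 0.47, then 0.40, 0.01 and 0.26 at the same times. Glands of both strains therefore kept Col11a1 near the level of the mean gene. By rank within a library, Col11a1 exceeded 32.1% to 41.8% of all genes in 4T1 tumors at 6 w p.i. and 98.8% to 99.2% of them in Py230 tumors at 6 w p.i. Col1a1 exceeded at least 99.3% of genes in every group.

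In the order of group means, Py230 tumors at 6 w p.i. (1.82 ± 0.05, SD, n = 3) came before Py230 tumors at 3 w p.i. (1.51 ± 0.41), and the values of these groups overlapped. A gap without overlap separated them from C57BL/6 glands at 3 w p.i. (0.41 ± 0.22). The next groups each overlapped their neighbor in the order: BALB/c glands at 6 w p.i. (0.29), BALB/c glands at 3 w p.i. (0.25), Py230 tumors at 1 w p.i. (0.23), C57BL/6 glands at 6 w p.i. (0.22) and at 1 w p.i. (0.16), BALB/c glands at 1 w p.i. (0.08), and 4T1 tumors at 1 w p.i. (-0.01). The 4T1 tumors at 3 w p.i. (-0.23 ± 0.08) lay below those without overlap, and overlapped the 4T1 tumors at 6 w p.i. (-0.40 ± 0.24), which were last.

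**Figure D2:**
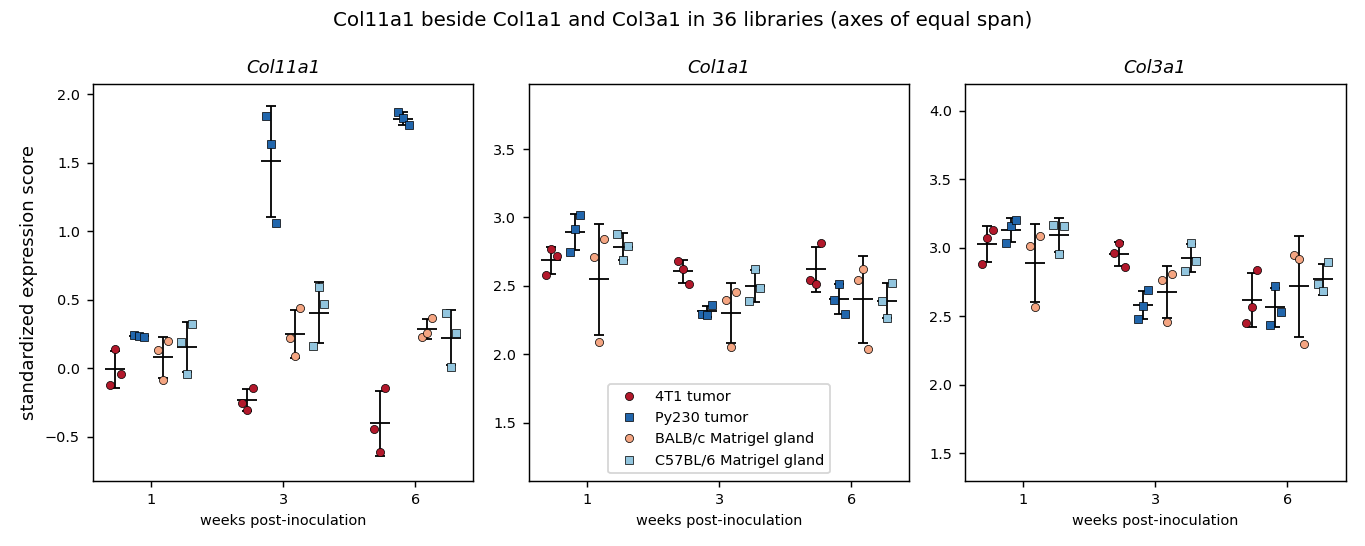
Standardized expression score of Col11a1, Col1a1 and Col3a1 (y axis, equal span in each panel) at 1, 3 and 6 weeks post-inoculation. Each point is 1 library, horizontal marks are means of 3 libraries and bars are SD. Py230 tumors at 6 weeks lie between 1.77 and 1.87 for Col11a1, while the groups of Col1a1 and Col3a1 lie close together.

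To ask how the abundant collagens changed beside it, Col1a1, Col1a2 and Col3a1 were read in the same libraries. Col1a1 scored 2.58, 2.77 and 2.72 in 4T1 tumors at 1 w p.i., 2.68, 2.62 and 2.51 at 3 w p.i., and 2.54, 2.51 and 2.81 at 6 w p.i. In Py230 tumors it scored 2.75, 2.92 and 3.02, then 2.30, 2.29 and 2.36, then 2.40, 2.51 and 2.29. Py230 tumors of 3 and 6 w p.i. lay below those of 1 w p.i. without overlap, whereas the 4T1 libraries overlapped between all weeks.
Col3a1 scored 2.88, 3.07 and 3.13 in 4T1 tumors at 1 w p.i., 2.96, 3.03 and 2.86 at 3 w p.i., and 2.45, 2.56 and 2.84 at 6 w p.i. Its Py230 values were 3.03, 3.16 and 3.20, then 2.48, 2.57 and 2.69, then 2.44, 2.72 and 2.53. It thus lay below its first-week values without overlap from 3 w p.i. in Py230 tumors and at 6 w p.i. in 4T1 tumors.
Col1a2 tracked Col1a1 closely. Its group means ran from 2.32 in Py230 tumors at 3 w p.i. to 2.88 in Py230 tumors at 1 w p.i. Glands of both strains scored between 2.04 and 2.88 for Col1a1, between 2.17 and 2.85 for Col1a2 and between 2.29 and 3.17 for Col3a1. One BALB/c gland of each week, replicate 2 in the first 2 time points and replicate 3 at 6 w p.i., was the lowest of its group for all 3 genes.

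The first comparison set the tumors of the 2 models against each other within each week. At 1 w p.i. none of the 9 genes passed an adjusted p of 0.05 in limma, and none had an unadjusted p under 0.05, while 19.4% of all genes were called. Col11a1 differed by -0.24 ± 0.15 (SE), with adjusted p = 0.26. At this first time point the fibrillar collagens of the 2 models therefore could not be separated beyond the spread of the libraries. The 9 genes had a median difference of -0.18 score units, and all genes one of 0.0055. In bulk tissue, fewer cells of a type and less RNA per cell cannot be told apart, here and in each comparison that follows.

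At 3 w p.i., 6 of the 9 genes were called, against 30.3% of all genes. The 4T1 minus Py230 difference of Col11a1 was -1.75 ± 0.15 score units (-5.22 log2, limma adjusted p = 2.2e-09). The other 5 called genes were higher in 4T1 tumors: Col5a3 by 0.50 ± 0.13 (adjusted p = 0.0041), Col5a1 by 0.40 ± 0.11 (adjusted p = 0.0054), Col24a1 by 0.38 ± 0.12 (adjusted p = 0.017), Col5a2 by 0.33 ± 0.10 (adjusted p = 0.013) and Col3a1 by 0.37 ± 0.14 (adjusted p = 0.049). All 3 chains of collagen V were thus higher in 4T1 tumors, opposite to Col11a1. Col1a2 (0.35, adjusted p = 0.053), Col1a1 (0.29, adjusted p = 0.14) and Col11a2 (0.17, adjusted p = 0.14) did not pass. Over all genes 11.9% were called higher and 18.5% lower.
The collagen V values of 4T1 tumors at 3 w p.i. were 1.60, 1.90 and 1.70 for Col5a1, against 1.21, 1.32 and 1.47 in Py230 tumors. For Col5a2 they were 2.08, 1.85 and 1.77 against 1.50, 1.58 and 1.64. For Col5a3 they were 1.38, 1.79 and 1.80 against 0.77, 1.24 and 1.47, and these overlapped. Col1a2 was called without the third Py230 library (adjusted p = 0.049). Without the first 4T1 library of that week, or without the first Py230 library (17.1% of all genes called), 3 of the 9 genes stayed called. Col11a1 was among them each time. Col5a2 was lost without either of these libraries (adjusted p = 0.092 and 0.075), Col5a3 without the first Py230 library (0.30, adjusted p = 0.072) and Col24a1 without the first 4T1 (0.27, adjusted p = 0.11) or the second Py230 library (0.33, adjusted p = 0.07). Col3a1 stayed called only without the third Py230 library, and was lost under 3 other scalings of the scores (adjusted p = 0.099 to 0.41).

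At 6 w p.i., 3 of the 9 genes were called, against 40.8% of all genes. The 4T1 minus Py230 difference of Col11a1 was -2.23 ± 0.15 score units (-6.65 log2, adjusted p = 4.5e-12). Its partner chain Col11a2 was higher in 4T1 tumors by 0.28 ± 0.09 (adjusted p = 0.009), and Col24a1 was higher by 0.31 ± 0.12 (adjusted p = 0.034). The genes of collagen XI therefore differed in opposite directions between the tumors. For Col11a2 the glands of the same week differed in the same direction, with means of -0.55 in BALB/c and -0.72 in C57BL/6. With the gland difference subtracted, Col11a2 was not called, as given below. Col11a2 scored -0.23, -0.23 and -0.24 in 4T1 tumors, against -0.42, -0.50 and -0.62 in Py230 tumors. Collagens I and III differed by 0.22 (Col1a1, adjusted p = 0.25), 0.11 (Col1a2, adjusted p = 0.56) and 0.05 (Col3a1, adjusted p = 0.81) at this time, and the collagen V chains by 0.20 to 0.26, none of which was called, although Col5a1 was without the first 4T1 or the second Py230 library (adjusted p = 0.04 and 0.038). Without the third Py230 library, Col11a2 (adjusted p = 0.062) and Col24a1 (adjusted p = 0.21) were lost and Col11a1 alone stayed. Col24a1 was also lost without the first or the third 4T1 library and with cyclic loess scaling (adjusted p = 0.068), under which 49.0% rather than 59.1% of the called genes were higher in 4T1 tumors.

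**Figure D3:**
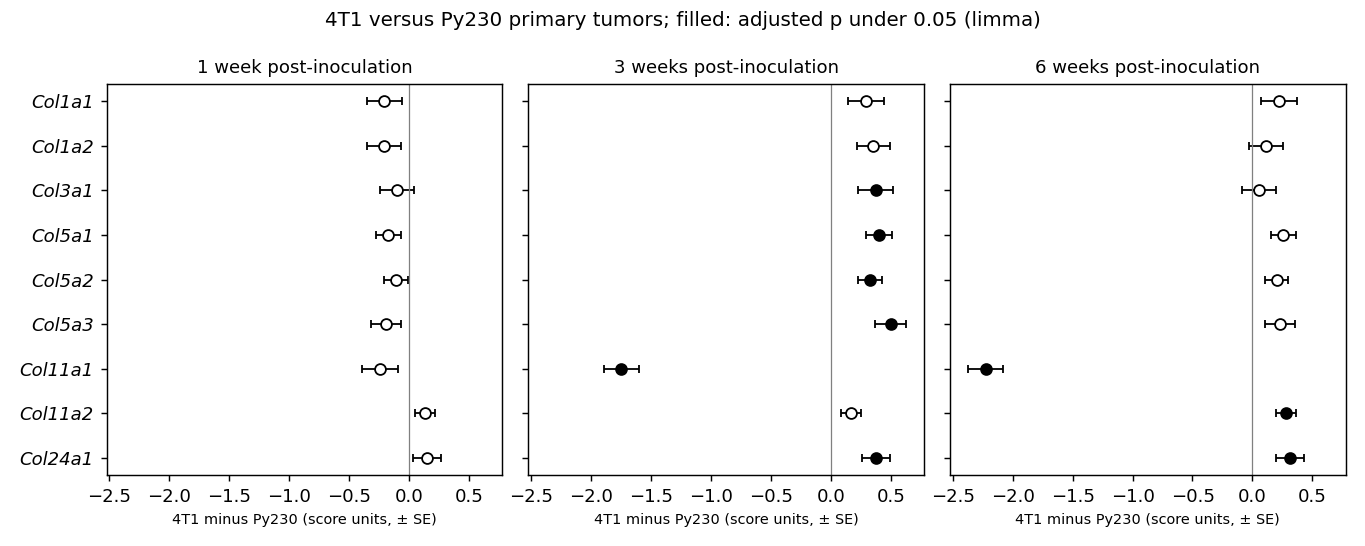
Difference of the 4T1 minus the Py230 mean score (x axis, score units) for the 9 genes at 1, 3 and 6 weeks post-inoculation, with SE bars. Filled points passed an adjusted p of 0.05 in limma. Col11a1 lies at -1.75 and -2.23 at 3 and 6 weeks, while all other called genes lie above 0.

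Within each library Col11a1 was then expressed relative to Col1a1. This removes a shift common to both scores, but not the division by the SD of that library. In Py230 tumors Col11a1 lay below Col1a1 by a mean difference of -2.66 score units at 1 w p.i., -0.80 at 3 w p.i. and -0.58 at 6 w p.i. In 4T1 tumors the same difference was -2.70, -2.84 and -3.02. The means of the 2 models lay close together at the first time point and far apart at the later ones. Averaged over the 3 weeks, the 4T1 minus Py230 difference of this measure was -1.51 relative to Col1a1 (exact two-sided permutation within weeks, p = 0.002), -1.49 relative to Col1a2 (p = 0.00175) and -1.51 relative to Col3a1 (p = 0.0005). Adjusted over the 3 genes these were 0.002, 0.002 and 0.0015, from exact permutation over 8000 relabellings, which allow p = 0.00025 at the smallest. By week, the difference relative to Col1a1 was -0.04, -2.04 and -2.45. Leaving out each of the 18 tumor libraries in turn kept the averages between -1.61 and -1.42.
In control glands Col11a1 minus Col1a1 averaged between -2.63 and -2.05 in all 6 groups. Glands at 3 and 6 w p.i. thus lay between both tumor models.

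**Figure D4:**
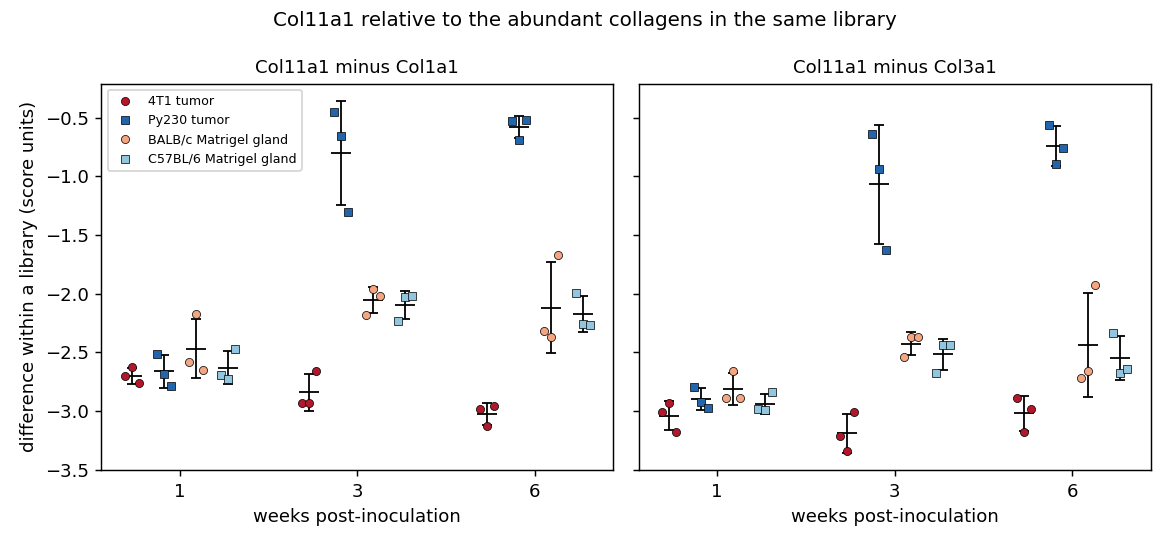
Score of Col11a1 minus that of Col1a1 (left) or Col3a1 (right) in the same library (y axis, score units) at 1, 3 and 6 weeks post-inoculation. Points are libraries, marks are means of 3 and bars are SD. Py230 tumors at 6 weeks average -0.58 relative to Col1a1, against -3.02 in 4T1 tumors.

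Change over time was then compared within each model. In Py230 tumors, 7 of the 9 genes differed between 3 and 1 w p.i., against 20% of all genes. Col11a1 rose by 1.28 ± 0.15 (3.82 log2, adjusted p = 2.3e-06). Collagens I, III and V fell together: Col1a1 by 0.58 ± 0.15 (adjusted p = 0.008), Col1a2 by 0.55 (adjusted p = 0.0069), Col3a1 by 0.55 (adjusted p = 0.009), Col5a3 by 0.51 (adjusted p = 0.0066), Col5a1 by 0.46 (adjusted p = 0.004) and Col5a2 by 0.37 (adjusted p = 0.011). Of all genes 12.8% rose and 7.17% fell. Col11a2 and Col24a1 differed by 0.06 and -0.07 and were not called. Means also fell in C57BL/6 glands between these weeks, for Col1a1 from 2.79 to 2.50 and for Col1a2 from 2.79 to 2.56. Col3a1 fell there from 3.09 to 2.92, Col5a1 from 1.78 to 1.62, Col5a2 from 1.93 to 1.85 and Col5a3 from 1.69 to 1.59. Mean Col11a1 rose in these glands from 0.16 to 0.41. The change over time in glands was not tested.
The calls in Py230 tumors depended on the first Py230 library of 3 w p.i. Without it Col11a1 still rose by 1.11 ± 0.15 (adjusted p = 5.4e-05), whereas the other 6 genes gave differences of -0.57 to -0.32 with adjusted p from 0.054 to 0.13, and 4.16% of all genes were called. Col5a2 was also lost without the third library of 1 w p.i. (adjusted p = 0.052) and Col3a1 with quantile scaling (-0.45, adjusted p = 0.053). The first library of 3 w p.i. held the lowest mean score of 10 adipocyte genes in its group (0.46, against 1.85 and 2.11) and of 10 skeletal muscle genes (-0.84, against 0.43 and 1.93). It also held the highest Col11a1 score, and the third library, with the highest adipocyte score, held the lowest. The part of remaining gland tissue in these differences was not tested.
Between 3 and 6 w p.i., none of the 9 genes was called in Py230 tumors (6.03% of all genes), and Col11a1 alone had an unadjusted p under 0.05 (difference 0.31, adjusted p = 0.23). Without the same first library of 3 w p.i., Col11a1 (0.48, adjusted p = 0.035) and Col5a3 (-0.44, adjusted p = 0.011) were called. The share of all genes called then rose from 6.03% to 15.1%.

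In 4T1 tumors none of the 9 genes was called between 1 and 3 w p.i. by limma, none had an unadjusted p under 0.05, and 0.628% of all genes were called. From 3 to 6 w p.i., 3 genes were called, against 53% of all genes. Col5a3 fell by 0.52 ± 0.13 (adjusted p = 0.0013), Col3a1 fell by 0.34 ± 0.14 (adjusted p = 0.049) and Col11a2 rose by 0.24 ± 0.09 (adjusted p = 0.021). Col11a1 differed by -0.17 (adjusted p = 0.35). In this interval the median of all genes shifted by 0.16 log2 (-0.04 with cyclic loess scaling), and 64.6% of the calls were upward (48.6% with that scaling). Without the second 4T1 library of 3 w p.i. Col5a3 alone stayed called, and Col11a2 was at 0.21 (adjusted p = 0.073). Col3a1 stayed called only without the third library of 6 w p.i. (adjusted p up to 0.19 without another), and was at -0.06 with quantile scaling.

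**Figure D5:**
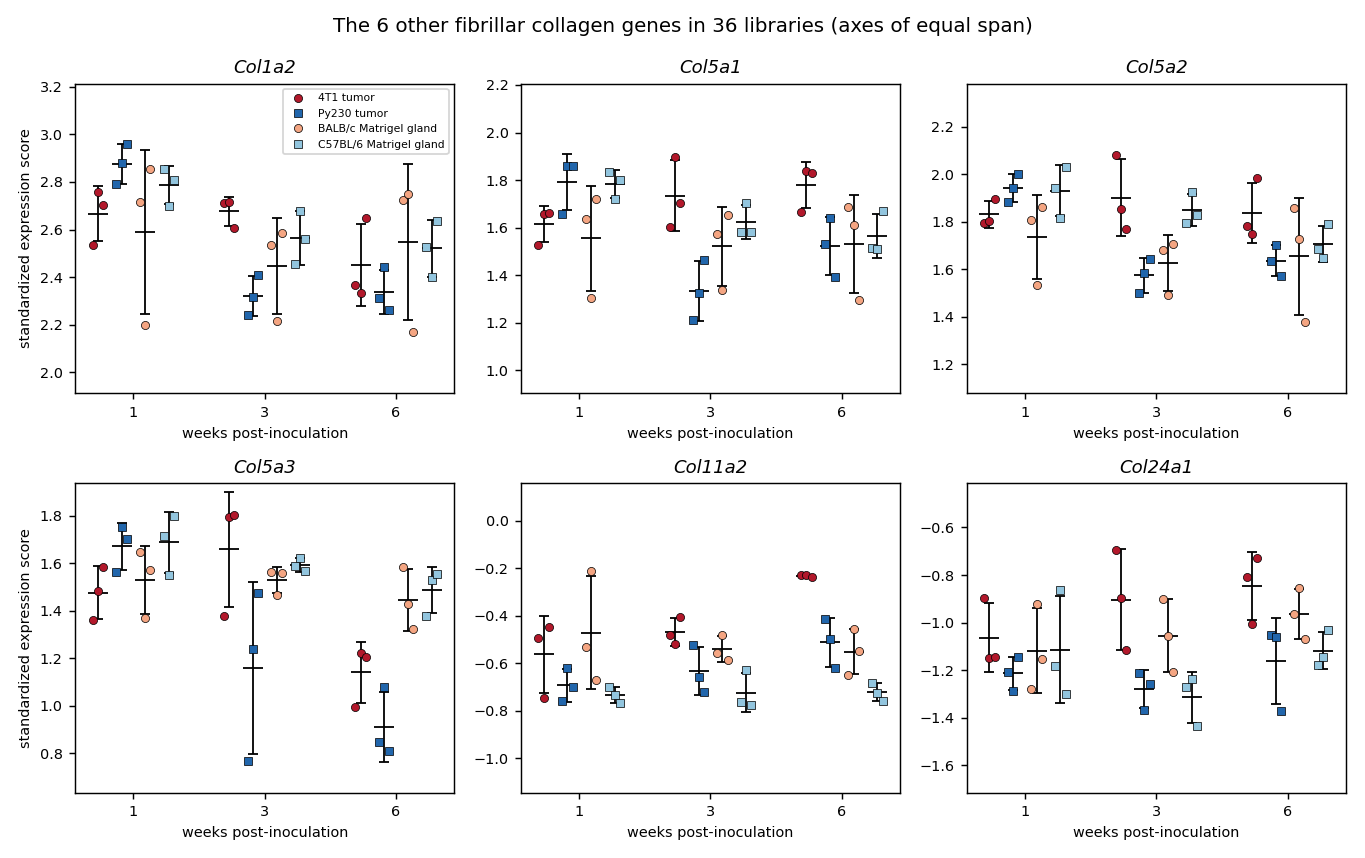
Standardized expression score of Col1a2, Col5a1, Col5a2, Col5a3, Col11a2 and Col24a1 (y axis, equal span in each panel) at 1, 3 and 6 weeks post-inoculation. Points are libraries, marks are means of 3 and bars are SD. Py230 tumors at 3 weeks are low for the collagen V chains, and Col11a2 is highest in 4T1 tumors at 6 weeks, at -0.23.

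To set tumors against tissue of the same strain, each was compared with its Matrigel glands. These comparisons share their tumor libraries with those above, so their values stand side by side and are not independent. At 1 w p.i. none of the 9 genes differed in either model by limma, and none had an unadjusted p under 0.05, while 16.6% of all genes were called for 4T1 tumors and 0.00924% (2 genes) for Py230 tumors. At 3 w p.i. Py230 tumors differed from C57BL/6 glands in 3 of the 9 genes (19.7% of all genes): Col11a1 was higher by 1.11 ± 0.15 (adjusted p = 1.6e-05), Col5a3 was lower by 0.43 ± 0.13 (-0.43, adjusted p = 0.018) and Col5a2 was lower by 0.27 ± 0.10 (-0.27, adjusted p = 0.0498). Of these, only Col11a1 stayed called without the first Py230 library (Col5a3 at -0.24, adjusted p = 0.29), where 4.36% of all genes were called. Col11a1 alone also stayed called without the second gland library (Col5a3 at -0.42, adjusted p = 0.058). Col5a2 kept its call only without the third Py230 library, where Col5a1 was called as well (-0.35, adjusted p = 0.023). The 4T1 tumors of 3 w p.i. differed from BALB/c glands in none of the genes (3.25% of all genes, limma). Of the 9, 2 had an unadjusted p under 0.05, Col11a1 (-0.48, adjusted p = 0.067) and Col5a2 (0.27, adjusted p = 0.11), and both were called without the third 4T1 library.
At 6 w p.i. the models diverged for Col11a1 and shared a lower Col5a3. Py230 tumors had 3 called genes (47.6% of all genes). Col11a1 was higher than in glands by 1.60 ± 0.15 (4.79 log2, adjusted p = 1.5e-08), Col11a2 was higher by 0.21 ± 0.09 (adjusted p = 0.042), and Col5a3 differed by -0.57 ± 0.13 (adjusted p = 0.00059). The 4T1 tumors had 4 called genes (60.1% of all genes). Col11a1 differed from glands by -0.69 ± 0.15 (-2.05 log2, adjusted p = 0.00032) and Col5a3 by -0.30 ± 0.13 (adjusted p = 0.041), while Col11a2 was higher by 0.32 ± 0.09 (adjusted p = 0.0022) and Col5a1 by 0.25 ± 0.11 (adjusted p = 0.045). Collagens I and III did not differ past the threshold from glands in either model, with differences of -0.21 to 0.22. Col1a1 was called for 4T1 tumors with quantile scaling (0.45, adjusted p = 0.016), Col3a1 without the third BALB/c gland (-0.31, adjusted p = 0.045) and Col5a2 without the first (0.28, adjusted p = 0.022). In Py230 tumors the call of Col11a2 was kept only without the third tumor library (adjusted p = 0.054 to 0.18 without another). In 4T1 tumors Col5a3 was lost without the first tumor or the first or second gland (adjusted p = 0.17, 0.16 and 0.072). Col5a1 was lost without the second or the third tumor or the third gland (adjusted p = 0.13, 0.12 and 0.31) and under each of 3 other scalings (adjusted p = 0.065 to 0.28). The median of all genes lay 0.19 log2 higher in 4T1 tumors than in glands (-0.01 with cyclic loess scaling), and 64.2% of the calls were upward (50.6% with that scaling).

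Glands of both strains gave the background of strain. None of the 9 genes was called between BALB/c and C57BL/6 Matrigel glands at 1, 3 or 6 w p.i. by limma, against 3.06%, 3.77% and 3.84% of all genes, and 2, 3 and 0 of them had an unadjusted p under 0.05. Col11a1 differed between strains by -0.08, -0.16 and 0.06. Col11a2 was called at 1 w p.i. without the third BALB/c gland (0.36, adjusted p = 0.015). When the gland difference was subtracted from the tumor difference, none of the 9 was called at 1 w p.i. (0.305% of all genes, none with an unadjusted p under 0.05). At 3 w p.i. 4 were called (9.15% of all genes): Col11a1 at -1.59 ± 0.21, Col5a3 at 0.56 ± 0.18, Col5a2 at 0.55 ± 0.14 and Col5a1 at 0.50 ± 0.15 (limma adjusted p = 4.7e-05, 0.048, 0.016 and 0.036). At 6 w p.i. Col11a1 alone was called, at -2.29 ± 0.21 (adjusted p = 9.2e-09, 25.5% of all genes). At 3 w p.i. Col11a1 alone stayed called without the first Py230 tumor (2.63% of all genes called) or the second BALB/c gland. Col5a3 was kept only without the first 4T1 or the third Py230 tumor and was lost under each of 3 other scalings (adjusted p = 0.054 to 0.065). Col5a1 was lost without any 1 of 7 of the 12 libraries (adjusted p = 0.052 to 0.13), and Col3a1 was called without the third 4T1 or the third Py230 tumor (0.67, adjusted p = 0.048 and 0.031). The difference between the models in Col11a1 was thus about as large after subtraction of the glands as before it. The glands received no tumor cells, so cell line and strain still cannot be told apart in it.
The change of the 4T1 minus Py230 difference over time was tested as an interaction. From 1 to 3 w p.i. it changed for 4 genes (15.3% of all genes): Col11a1 by -1.50 ± 0.21 (adjusted p = 9.6e-05), Col5a3 by 0.69 ± 0.18, Col5a1 by 0.58 ± 0.15 and Col5a2 by 0.44 ± 0.14 (adjusted p = 0.012, 0.012 and 0.034). Col11a1 alone stayed called without the first Py230 tumor of 3 w p.i. (adjusted p = 0.056 for Col5a1, 0.061 for Col5a3). There 4.95% of all genes were called. Col5a2 was lost without any 1 of 8 of the 12 libraries. Col1a2 was called without the second 4T1 tumor of 1 w p.i. (adjusted p = 0.044) or the third Py230 tumor of 3 w p.i. (adjusted p = 0.033). From 3 to 6 w p.i. none of the 9 changed (26.7% of all genes, limma), and Col11a1 alone had an unadjusted p under 0.05 (-0.48, adjusted p = 0.092). It was called without the third 4T1 tumor of 6 w p.i. (-0.61, adjusted p = 0.039) or the first Py230 tumor of 3 w p.i. (-0.64, adjusted p = 0.025). Without that Py230 tumor 21.8% of all genes were called. Over the whole interval Col11a1 (-1.98 ± 0.21, adjusted p = 8.8e-08) and Col5a1 (0.43 ± 0.15, adjusted p = 0.032) changed (27.4% of all genes), and Col5a1 was lost without any 1 of 7 of the 12 libraries (adjusted p = 0.051 to 0.092).

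Across the 12 group means, the chains of collagens I, III and V varied together, with Pearson correlations of 0.46 to 0.96 over 15 pairs. Col11a1 was negatively related to each of these 6 chains, with correlations of -0.68 to -0.49. The points share the standardization of each library, and these values are a description. Among 10825 genes above the median level, those most like Col11a1 over the 12 group means included Pik3r3 (r = 0.988), Zfp24 (0.982), Rab2a (0.978) and Boc (0.975). These 4 were highest in Py230 tumors at 6 w p.i., as was Col11a1, and their choice by likeness to it favors this. Pik3r3, a regulatory subunit of phosphoinositide 3-kinase, ran from a mean score of -0.18 to 1.31, and Boc, a Hedgehog co-receptor, from 0.76 to 1.59. The genes most like Col1a1 were Tlr7 (0.899), Loxl2 (0.842), Mertk (0.841), Ube2j2 (0.820) and Vcan (0.808). These include the crosslinking enzyme Loxl2 and the matrix proteoglycan Vcan.

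Genes that act on fibrillar collagen were read from lists of known members. At 3 w p.i., 4 of 5 crosslinking genes stood higher in the 4T1 tumors and none lower, with a median difference of 0.41, against -0.01 over all genes, of which 11.9% were called higher and 18.5% lower. Loxl4 was higher by 0.63 (adjusted p = 0.0011) and Loxl2 by 0.52 (adjusted p = 0.00082), both of them lysyl oxidase family members. Of 8 genes of procollagen trimming, 6 were higher and 1 lower. Adamts14, a procollagen N-proteinase, was higher by 0.57 (adjusted p = 0.00023), and the related Adamts3 was lower by 0.54 (-0.54, adjusted p = 1.9e-05). Of 20 genes of modification and folding in the endoplasmic reticulum, 8 were higher and none was lower, with a median difference of 0.09, beside the same 11.9% and 18.5% of all genes. Crtap and P3h1, which form the prolyl 3-hydroxylase complex, were higher by 0.23 and 0.30 (adjusted p = 1.5e-05 and 0.00044).
At 6 w p.i. the split was less one-sided, with 2 of 5 crosslinking genes higher, 4 of 8 trimming genes higher and 1 lower, and 5 of 20 modification genes higher and 4 lower, beside 24.1% of all genes higher and 16.7% lower. Loxl4 stood 1.02 higher in 4T1 tumors (adjusted p = 8.7e-07), and Adamts3 stood lower by 1.22 (-1.22, adjusted p = 3.7e-12).
Of 25 fibril-associated collagens and proteoglycans, 8 were higher and 3 lower in 4T1 tumors at 3 w p.i., and 3 were higher and 8 lower at 6 w p.i. (all genes 24.1% higher and 16.7% lower). Of 9 collagen receptors, 2 were higher and 2 lower at 3 w p.i., which at this list size is near the 11.9% and 18.5% of all genes. Ddr1, a receptor tyrosine kinase for collagen, was lower in 4T1 tumors by 0.43 (-0.43, adjusted p = 4.6e-05), and Itga11, the integrin chain for collagen I on fibroblasts, was higher by 0.67 (adjusted p = 0.0021). Of 15 genes of the TGF-beta axis, a main inducer of collagen synthesis, 2 were higher and 4 lower at 3 w p.i., again near the shares of all genes. Tgfb2 was lower by 0.59 (-0.59, adjusted p = 6.7e-05) and Tgfbr2 higher by 0.34 (adjusted p = 0.00052).

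Genes known from cartilage, where collagen XI partners collagens II and IX, were read beside Col11a1. In Py230 tumors at 6 w p.i., 6 of 7 measured cartilage genes were higher than in C57BL/6 glands and none was lower, with a median difference of 0.53, while 28.8% of all genes were higher. Col9a1, a chain of collagen IX, is counted in this and in the fibril-associated list. It scored 0.57, 0.62 and 0.58 in Py230 tumors at 1 w p.i., 1.62, 1.43 and 0.96 at 3 w p.i., and 1.58, 1.63 and 1.41 at 6 w p.i. In 4T1 tumors Col9a1 scored 1.04, 1.05 and 0.96, then 0.55, 0.27 and 0.40, then -0.63, -0.78 and -0.69. It was higher in 4T1 tumors at 1 w p.i. (0.43, adjusted p = 0.025) and lower by 0.93 and 2.24 at 3 and 6 w p.i. (-0.93 and -2.24, adjusted p = 9.2e-06 and 4.6e-13). Glands differed by strain as well. At 1 w p.i. Col9a1 scored 1.27, 0.81 and 1.14 in BALB/c and 0.47, 0.09 and 0.56 in C57BL/6 glands. At 6 w p.i. it scored 0.56, 0.59 and 0.78 against 0.24, 0.04 and 0.06. The higher score in 4T1 tumors at 1 w p.i. thus went the same way as the glands. Sox9, the transcription factor that drives cartilage collagen genes, was 0.45 higher in Py230 tumors than in glands at 6 w p.i. (adjusted p = 0.00068). It was well above the mean gene in all of them, at 1.48, 1.38 and 1.40 in these tumors and 1.15, 0.84 and 0.93 in the glands. In 4T1 tumors of that week it scored 1.07, 1.04 and 0.97. Acan, the core protein of aggrecan, was 0.64 higher in these Py230 tumors than in the glands (adjusted p = 1.9e-05). Its level was low, with a mean score of -1.29 in these tumors.
Col2a1, the defining chain of cartilage, was higher than in glands in both tumors at 6 w p.i., by 0.56 in Py230 (adjusted p = 0.00083) and by 0.45 in 4T1 tumors (adjusted p = 0.004), and did not differ past the threshold between the tumors (-0.18, adjusted p = 0.29). Without the second 4T1 tumor its difference from BALB/c glands was 0.31 and lost its call (adjusted p = 0.053). Its mean score of -1.09 in Py230 tumors at 6 w p.i. left it far below Col11a1. Col27a1 was called in none of the comparisons of tumors with each other or with glands, with group means between 0.37 and 0.52, but was called between the tumors at 6 w p.i. without the second 4T1 tumor (-0.21, adjusted p = 0.026).

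Markers of the cells that make or dilute collagen were read beside these results. Of 15 fibroblast markers, 8 were higher and none was lower in 4T1 than in Py230 tumors at 3 w p.i., with a median difference of 0.34 (11.9% of all genes higher), and 11 of 15 fell in Py230 tumors from the first to the second time point (7.17% of all genes). The mean score of the list lay between 0.90 and 1.31 in Py230 and between 1.40 and 1.54 in 4T1 tumors at 3 w p.i. At 6 w p.i. it lay between 1.07 and 1.19 in 4T1 tumors, below the BALB/c glands of that week (1.31 to 1.63). From 3 to 6 w p.i. the 4T1 means of Col1a2, Col3a1, Col5a2 (1.90 to 1.84) and Col5a3 fell as well. Those of Col1a1 (2.61 to 2.62) and Col5a1 (1.74 to 1.78) did not. Of these falls only those of Col5a3 and Col3a1 were called, and the call of Col3a1 rested on single libraries, as given above. Of 10 adipocyte markers, all 10 were lower than in glands in both tumors at 6 w p.i., where 21.5% of all genes were lower in 4T1 and 18.7% in Py230 tumors. The list scored between -0.28 and 0.08 in 4T1 and between -0.02 and 1.15 in Py230 tumors, against 1.79 to 2.10 and 2.03 to 2.39 in the glands. Adipoq and Plin1, its defining genes, differed from glands by -2.33 and -2.32 in 4T1 and by -1.92 and -1.84 in Py230 tumors (adjusted p = 7e-06, 3.6e-06, 0.00013 and 0.00012). Of 7 milk epithelium markers, 5 were lower in 4T1 than in Py230 tumors at 6 w p.i. (16.7% of all genes), and of 8 leukocyte markers 5 were higher in 4T1 tumors at 1 w p.i. (11% of all genes). None of 10 skeletal muscle markers differed between the tumors, but their score ran from -0.84 to 1.93 within Py230 tumors at 3 w p.i. Of 7 myofibroblast and smooth muscle markers, 4 were lower in 4T1 than in Py230 tumors at 6 w p.i., of 10 epithelial markers 4 were lower, and of 6 endothelial markers 1 was higher and 1 lower, beside 24.1% of all genes higher and 16.7% lower. In Py230 tumors mean Col11a1 rose between the first 2 time points (0.23 to 1.51), while the fibroblast list (1.52 to 1.14) and collagens I, III and V fell. Over that interval the 4T1 mean of Col11a1 went from -0.01 to -0.23 and that of the list from 1.39 to 1.48. By 6 w p.i. both were lower in 4T1 tumors, at -0.40 for Col11a1 and 1.12 for the list. Neither change of Col11a1 in 4T1 tumors was called. The part of any of these cell types in the collagen differences was not tested.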

How the data were processed

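RNA-seq was done on 18 intraductal primary tumors and 18 Matrigel glands. Per the labels and the study's methods, total RNA was made into stranded libraries, sequenced as paired-end reads, and aligned with STAR to mm10. Versions are not given in the sources used here. The deposited expression table holds 1 score per gene and library. The authors did not state the transformation, and each library has mean 0 and SD 1 over 21650 genes, so that no count model could be fitted. The mean normalized count over all libraries (unit other), which the authors deposited beside their DESeq2 results, served for level per kb and for the score scale. Exon lengths came from GENCODE M21. The fold changes, p-values and gene set categories in the other columns and files are the authors' comparisons and were not used.

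Group means were fitted over all 36 libraries with limma 3.58.1 in R 4.3.3, with trended and robust variance moderation, and p-values were adjusted by Benjamini-Hochberg over all 21650 genes (threshold 0.05). The fit was tested on simulated data. Groups followed the labels. Symbols came from the deposited tables for 16266 genes and from the annotation for 5384. Differences within a library were tested by exact permutation within weeks. Named genes were the 9 members, Col2a1 and Col27a1, and the 2 genes of each list with the smallest p between tumors at 3 w p.i. To these were added the first 2 genes of each cell type list, and the 5 genes outside the 9 most correlated with Col11a1 and with Col1a1. One gene that this rule names is not reported here. Members and lists were chosen with earlier results of these data known. Alternatives were other scalings, leaving out the genes below the median level, plain moderation, only the weeks compared, a replicate block and leaving out each library. Gp6, Col10a1, Matn1 and Hapln1 were not in the table.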

Additional observations from a re-analysis of the deposited data

Results flagged for a closer look

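The difference between the models itself changed for 4 of the genes, by a test of the interaction in each case. With the Matrigel gland difference of the strains subtracted, the 4T1 minus Py230 difference at 3 w p.i. was -1.59 score units for Col11a1, 0.563 for Col5a3, 0.548 for Col5a2 and 0.501 for Col5a1. At 6 w p.i. it was -2.29 for Col11a1. From 1 to 3 w p.i. the difference between the tumors shifted by -1.50 for Col11a1, 0.693 for Col5a3, 0.576 for Col5a1 and 0.435 for Col5a2. From 1 to 6 w p.i. it shifted by -1.98 for Col11a1 and 0.433 for Col5a1. These tests share their tumor libraries. For the collagen V genes the calls at 3 w p.i. rested on single libraries, and for the gland-subtracted Col5a3 also on the scaling, as given beside them above. Groups of 3 libraries were not tested for single libraries that stood apart.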

How the results depend on the processing

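No result changed direction past the threshold under any alternative. The lower level of Col11a1 in 4T1 tumors stayed called at 3 w p.i. (-1.97 to -1.58 without 1 library) and 6 w p.i. (-2.35 to -2.12), and stayed uncalled at 1 w p.i. (-0.32 to -0.18). Of the values for single genes, 3290 kept their side of the threshold, 116 lost and 31 gained a call. With only the weeks compared in the fit, 1 of the 9 genes was called for Py230 tumors against glands at 3 w p.i. and 1 for the gland-subtracted difference at 3 w p.i. Under quantile or robust line scaling, 1 was called for the change from 1 to 6 w p.i. These fits use fewer libraries or another scale, and the cause was not tested. Without 1 library, the number of the 9 genes called was 3 to 7 for 4T1 against Py230 tumors at 3 w p.i. and 1 to 4 at 6 w p.i., 0 to 2 for 4T1 tumors against glands at 3 w p.i., and 1 to 4 for Py230 tumors against glands at 3 w p.i. It was 0 to 1 for glands of the 2 strains at 1 w p.i., 1 to 5 for the gland-subtracted difference at 3 w p.i., 1 to 5 for the change from 1 to 3 w p.i., 0 to 1 from 3 to 6 w p.i. and 1 to 2 from 1 to 6 w p.i. Within models it was 1 to 3 for 4T1 from 3 to 6 w p.i., 1 to 7 for Py230 from 1 to 3 w p.i. and 0 to 2 for Py230 from 3 to 6 w p.i.

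Libraries of the groups share replicate numbers. For tumors of the same week and number, correlations of deviations from the group mean were -0.410 to 0.522, and 2 of 9 pairs exceeded 0.1. Both were at 3 w p.i., at 0.522 for replicate 1 and 0.218 for replicate 3. Deviations within a group of 3 depend on each other and glands were not checked, so this does not settle whether the numbers pair libraries. With a replicate block, 5 rather than 6 genes were called between the tumors at 3 w p.i., since Col3a1 was at an adjusted p of 0.054. Depth is unknown, and the low scores of Col24a1 and Col2a1 could not be weighed by it.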

Other observations

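The chains of collagen I, which assemble in a fixed ratio into 1 molecule, did not keep a fixed difference in score. Col1a1 minus Col1a2 in the same library was 0.17 ± 0.01 (SD, n = 3) in 4T1 tumors at 6 w p.i., above every other library, and -0.14 ± 0.02 in BALB/c glands at 3 w p.i. It was 0.06 ± 0.03 in Py230 tumors and -0.13 ± 0.01 in C57BL/6 glands at 6 w p.i. In glands of both strains the mean lay closer to 0 at 1 w p.i. (-0.04 in BALB/c and 0.0008 in C57BL/6) than at 6 w p.i. These differences are a description and were not tested.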
